A study of Mus musculus with 14 samples.

Results

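The genes described here are 37 genes of cell proliferation, chosen by name for their known parts in copying DNA (13 genes) or in dividing the chromosomes and the cell (24 genes). For 36 of them, out of 19938 genes tested, the table held a row named for that gene alone. These were all 13 replication genes and 23 of the 24 mitosis genes. Ccnb1, which encodes cyclin B1, was not analysed here. The signals came from Affymetrix Mouse Gene 1.0 ST arrays hybridised with total RNA of isolated pancreatic islets. All mice were 11 weeks old, untreated and of a mixed C57BL/6 and NMRI (1:1) background. Control mice gave 5 of the arrays, Pdx-1+/- mice 4, and IKK2-CApdx-1 mice, which were diabetic and are called IKK2-CA in the following, another 5. Per the labels, the driver Pdx-1-tTA makes the Pdx-1+/- mice haploinsufficient for Pdx-1, which encodes a key transcription factor of β-cells. IKK2-CA mice carry that same driver and use it to make constitutively active IKK2, the kinase that switches on NF-κB, in β-cells. Every comparison of IKK2-CA with another group therefore also compares diabetic mice with mice that are not labelled diabetic, and active IKK2 and diabetes cannot be told apart. Whether the arrays of a group come from separate mice is not in the labels, so a p-value measures only the spread between these samples, which may be technical. The values are log2 signals after robust multichip averaging (RMA), which allow a gene to be compared between arrays but not one gene with another.

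Cells that divide switch on these genes in successive waves. As a cell leaves its resting phase, E2F factors turn on the genes that load the MCM helicase, make nucleotides and copy DNA. Later, B-MYB and FOXM1, bound with the MuvB complex at CHR elements, turn on the genes for the mitotic kinases, the spindle and cytokinesis. Adult β-cells divide rarely, whereas activated lymphocytes and other blood cells that enter an islet can divide often, and RNA from the whole islet preparation sums all of them. In such bulk RNA, fewer cells of a type and less RNA per cell cannot be told apart.

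The promoters of 6 members are shown because the results below turn on these genes and because the promoters carry the sequence elements of both waves. Each runs 5′ to 3′ on the gene's own strand, from 250 bases before to 50 bases after the start that RefSeq gives in its GRCm38.p6 annotation. Capitals mark matches on either strand to 3 motifs. The E2F site was searched as TTCCCGC, with the variants spelled TTCGCGC, then spelled TTGCCGC and then spelled TTGGCGC. The CHR was searched as TTTGAA and with the variant spelled TTCGAA, and the CCAAT box by its own letters. An E2F match and a CCAAT match can share bases, as can E2F matches on opposite strands. Mki67 lies at chr7:135716330-135716629 (minus strand), Top2a at chr11:99024140-99024439 (minus), Ccnb2 at chr9:70421505-70421804 (minus) and Kif11 at chr19:37376132-37376431 (plus). Mcm5 lies at chr8:75109259-75109558 (plus) and Mcm6 at chr1:128359656-128359955 (minus).
Mki67: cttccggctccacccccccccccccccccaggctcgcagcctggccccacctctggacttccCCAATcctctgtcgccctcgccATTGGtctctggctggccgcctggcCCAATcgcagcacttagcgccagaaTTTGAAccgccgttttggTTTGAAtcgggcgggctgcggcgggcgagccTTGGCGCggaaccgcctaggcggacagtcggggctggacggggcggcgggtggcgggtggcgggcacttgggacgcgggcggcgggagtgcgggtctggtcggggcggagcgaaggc
Top2a: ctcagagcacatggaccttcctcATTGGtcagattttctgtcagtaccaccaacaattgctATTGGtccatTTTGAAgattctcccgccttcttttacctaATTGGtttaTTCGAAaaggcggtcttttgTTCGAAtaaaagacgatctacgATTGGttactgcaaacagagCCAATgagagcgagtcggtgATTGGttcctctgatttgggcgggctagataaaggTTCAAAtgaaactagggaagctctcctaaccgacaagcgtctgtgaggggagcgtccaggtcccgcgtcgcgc
Ccnb2: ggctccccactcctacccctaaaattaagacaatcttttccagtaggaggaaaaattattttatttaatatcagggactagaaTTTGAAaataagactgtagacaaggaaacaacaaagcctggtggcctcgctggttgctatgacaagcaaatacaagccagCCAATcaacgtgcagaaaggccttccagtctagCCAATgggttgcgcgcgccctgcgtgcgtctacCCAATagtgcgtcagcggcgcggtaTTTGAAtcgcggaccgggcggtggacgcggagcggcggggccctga
Kif11: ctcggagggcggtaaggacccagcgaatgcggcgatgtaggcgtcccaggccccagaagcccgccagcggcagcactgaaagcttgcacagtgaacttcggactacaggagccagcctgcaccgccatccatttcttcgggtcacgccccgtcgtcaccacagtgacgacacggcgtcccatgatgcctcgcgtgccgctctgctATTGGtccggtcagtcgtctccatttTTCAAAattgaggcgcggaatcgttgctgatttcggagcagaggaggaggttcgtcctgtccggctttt
Mcm5: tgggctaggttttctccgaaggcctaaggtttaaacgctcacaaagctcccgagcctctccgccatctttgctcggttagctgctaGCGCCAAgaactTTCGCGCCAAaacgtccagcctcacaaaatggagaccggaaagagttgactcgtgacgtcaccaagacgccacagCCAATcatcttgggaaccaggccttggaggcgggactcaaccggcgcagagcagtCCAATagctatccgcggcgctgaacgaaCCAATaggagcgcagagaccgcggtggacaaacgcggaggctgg
Mcm6: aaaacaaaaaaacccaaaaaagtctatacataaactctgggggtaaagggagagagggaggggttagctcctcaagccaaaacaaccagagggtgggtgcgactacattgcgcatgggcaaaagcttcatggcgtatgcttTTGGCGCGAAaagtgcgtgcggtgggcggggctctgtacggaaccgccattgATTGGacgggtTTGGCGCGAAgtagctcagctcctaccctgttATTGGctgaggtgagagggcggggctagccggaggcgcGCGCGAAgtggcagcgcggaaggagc

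The 4 mitosis promoters shown all held a CHR and a CCAAT box, whereas the Mcm5 and Mcm6 promoters held E2F and CCAAT matches and no CHR. Top2a held the most CCAAT boxes of the members matched, with 6 matches beside 4 CHR matches. RefSeq promoters of this length were found for 29 of the 36 members, 11 replication and 18 mitosis genes, with 2 starts each for Mcm7 and Prc1. Those without an entry were Mcm4, Ccne2, Ccna2, Foxm1, Aurkb, Kif20a and Tpx2. An E2F match lay in 7 of 12 replication promoters (58.3%) and 2 of 19 mitosis promoters (10.5%), against 9.57% of all 32851 promoters of the table. A CHR match lay in 2 of 12 replication promoters (16.7%) and 16 of 19 mitosis promoters (84.2%), against 19.2% of all. A CHR and a CCAAT box together lay in 15 of 19 mitosis promoters (78.9%) and 2 of 12 replication promoters (16.7%), against 7.52% of all. Cdk1 and Mki67 were the mitosis members with an E2F match, while Birc5, Cenpe and Nusap1 had no CHR match in this window. The replication members with a CHR match were Mcm2 and the upstream start of Mcm7. A match is a description of the sequence, not of a factor bound there.

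Some facts about the arrays bear on all that follows. Ins2, the insulin gene, read 12.3 to 12.7 and Gcg, the glucagon gene, 12.9 to 13.4 across the 14 arrays, so both islet hormones were near the top of the scale. Enzyme genes of acinar cells, the exocrine cells of the pancreas, were near the top too. Cpa1 and Ctrb1 both read 13.6 to 13.7 across the 14 arrays, so all arrays carried acinar RNA. The mean of 8 acinar genes was 12.62 to 12.89 in control, 12.75 to 13.02 in Pdx-1+/- and 12.56 to 12.93 in IKK2-CA islets. The highest signal of an array was 13.852 to 13.962, so genes this near the top can show little difference in acinar RNA. Ptf1a alone of the 8 lay well below, at 6.83 to 9.33, and was highest on Pdx-1+/- array 4. In addition, control array 3 and Pdx-1+/- array 4 carried genes of intestinal epithelium, and IKK2-CA array 5 carried genes of adipocytes. The mean of 11 intestinal genes stood 1.16 log2 above the 14-array mean on control array 3 and 2.34 above it on Pdx-1+/- array 4. The mean of 7 adipocyte genes stood 2.58 above it on IKK2-CA array 5. Of the 36 members, 29 had a 14-array mean below the median of all genes (6.515), and the member means ran from 3.66 (Ttk) to 9.52 (Pcna). Low signals on these arrays hold more probe background, which limits how much of a change they can show.

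Compared with Pdx-1+/- islets, IKK2-CA islets had higher signals of proliferation genes, but no member passed the test adjusted over all genes. Of the 36 members, 35 had a positive log2 difference (all genes tested: 45%), and the median was 0.36 (all genes: −0.015). The mitosis genes had a median of 0.40 and the replication genes of 0.26. Mki67, which coats mitotic chromosomes and marks dividing cells, had the largest difference at 1.96-fold, followed by Top2a at 1.85-fold and Ccna2 at 1.80-fold. Ttk, a kinase of the spindle checkpoint, was the exception, at log2 −0.05.

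By limma with Benjamini-Hochberg adjustment, 0 of 36 members passed an adjusted p of 0.05 in either direction in this comparison, which asks what active IKK2 and the diabetes change in mice that share the driver. Over all genes 0.0752% were called higher and 0 were called lower. The lowest adjusted p of a member was 0.235, for Mki67. At an unadjusted p under 0.05, 18 of 36 members were higher (all genes: 4.32%) and 0 were lower (2.69%). The 18 were 3 of the 13 replication genes and 15 of the 23 mitosis genes. Every IKK2-CA array lay above every Pdx-1+/- array for Mcm5, Mcm7, Kif11 and Mki67, 4 of 36 members (all genes: 1.72%), and 0 lay lower throughout (0.712%). With the arrays that carried intestinal (Pdx-1+/- 4) and adipocyte genes (IKK2-CA 5) left out, the count at an unadjusted p under 0.05 was 10 and the median 0.20. Leaving out 1 array at a time, of either group, moved the log2 difference of 18 of 36 members by over 1.5 times or changed its sign. IKK2-CA array 5 did so for 8 of them and Pdx-1+/- array 4 for 8. Arrays not singled out for such genes did so too. IKK2-CA array 3 moved the most members, namely Tyms, Rrm2, E2f1, Ccne1, Ccne2, Foxm1, Aurka, Ttk, Cdc20 and Ndc80. IKK2-CA array 4 moved as many as array 5, namely Tyms, E2f1, Ccne1, Ccne2, Aurka, Ttk, Ndc80 and Cenpf.

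Proliferation genes also lay higher in IKK2-CA than in control islets. Here 34 of 36 members had a positive log2 difference (all genes: 46.4%), with a median of 0.29 (all genes: −0.012). The median was 0.32 for the mitosis genes and 0.22 for the replication genes. All 23 mitosis genes were positive, led by Ccna2 at 1.87-fold, Mki67 at 1.81-fold and Top2a at 1.72-fold. E2f1 (log2 −0.13) and Ccne2 (log2 −0.04), which act at entry into replication, were the members below 0.

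The groups of this comparison differ in the driver allele, in active IKK2 and in diabetes, and it uses the same IKK2-CA arrays as the one before, so neither is a repeat of the other. By limma with Benjamini-Hochberg adjustment 0 of 36 members passed, against 0.682% of all genes called higher and 1.56% called lower, with 0.063 for Mki67 as the lowest adjusted p of a member. At an unadjusted p under 0.05, 18 members were higher (all genes: 6.2%) and 0 were lower (9.47%). They were 4 of 13 replication genes and 14 of 23 mitosis genes. Mcm5, Bub1b, Kif11 and Mki67 lay higher on every IKK2-CA array than on every control array, 4 of 36 members (all genes: 1.86%), and 0 lay lower throughout (2.34%). The count of 0 depended on single arrays. Without IKK2-CA array 4, 8 members passed the adjusted p (Mcm5, Ccnb2, Plk1, Aurkb, Bub1b, Kif11, Tpx2 and Mki67). Calls rose over all genes as well, to 980 from 448 in the main fit. Without IKK2-CA array 1, 6 passed (Ccna2, Ccnb2, Kif11, Nusap1, Top2a and Mki67), where 345 genes were called over all. Without control array 3, Pdx-1+/- array 4 and IKK2-CA array 5, 0 passed, 9 were higher at an unadjusted p under 0.05, and the median was 0.18. With 1 array of either group left out at a time, 20 of 36 log2 differences moved by over 1.5 times or changed sign, 11 of them without IKK2-CA array 5 and 5 without control array 3. Leaving out IKK2-CA array 3 moved Tyms, Rrm2, Ccne1, Ccne2, Foxm1, Aurka, Ttk, Cdc20 and Kif20a. Leaving out IKK2-CA array 4 moved Tyms, Ccne1, Ccne2, Aurka, Ttk and Cenpf. Each of these arrays moved more members than control array 3 did.

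**Figure D1:**
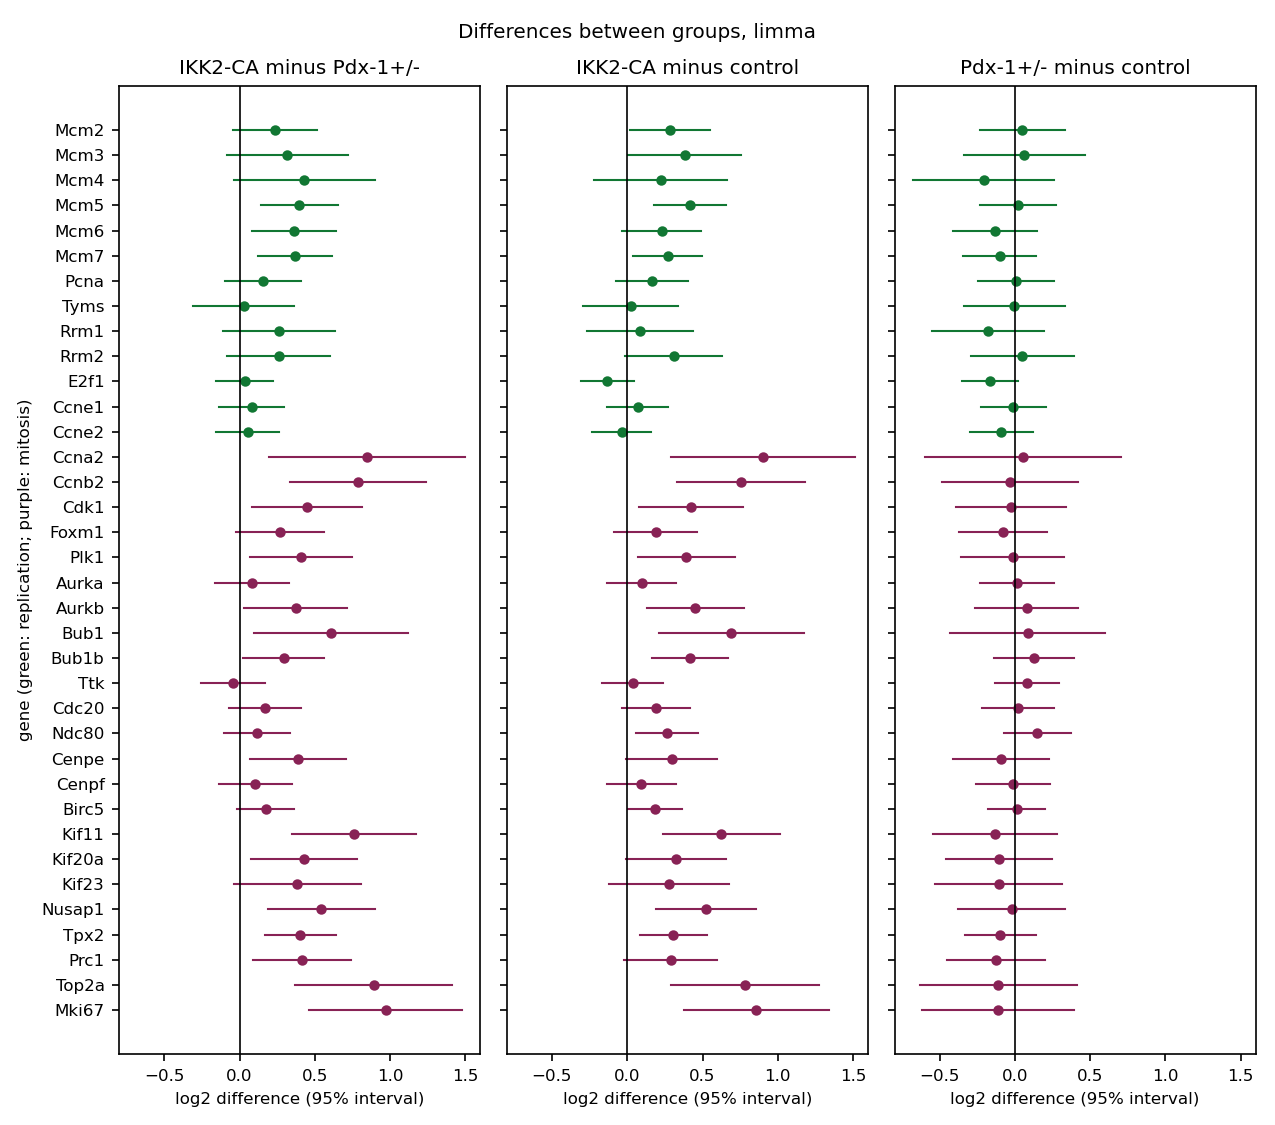
Log2 differences of the 36 members in the 3 comparisons (x axes), a gene per line, with points for the limma estimate and bars for its 95% interval, replication genes in green and mitosis genes in purple. Mki67 stands farthest right in the left panel at 0.97, Ccna2 in the middle panel at 0.90, and in the right panel every interval spans 0.

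The plot of differences sets the comparisons side by side. The purple mitosis genes reach farther from 0 than the green replication genes in both IKK2-CA panels, and the widest bars belong to Ccna2, Top2a, Mki67 and Bub1.

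Among the replication genes, those of the MCM helicase had the largest medians. Mcm2, Mcm3, Mcm4, Mcm5, Mcm6 and Mcm7 encode the subunits of the ring that unwinds DNA ahead of the fork. All 6 were positive in both IKK2-CA comparisons, with medians of 0.36 against Pdx-1+/- and 0.28 against control. Mcm5 read 6.25, 6.52, 6.33, 6.32 and 6.36 on control arrays 1 to 5, 6.50, 6.47, 6.32 and 6.23 on Pdx-1+/- arrays 1 to 4, and 6.59, 6.63, 6.86, 6.59 and 7.20 on IKK2-CA arrays 1 to 5. All 5 IKK2-CA arrays were above the other 9, with array 5 the highest and the lowest only slightly above control array 2. It differed by log2 0.40 (1.32-fold, SE 0.12, adjusted p = 0.364, limma) against Pdx-1+/- and 0.42 (1.34-fold, SE 0.11, adjusted p = 0.069) against control.

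Mcm7 read 7.14, 7.16, 6.98, 6.99 and 6.88 in control, 6.91, 6.91, 6.92 and 6.96 in Pdx-1+/- and 7.21, 7.18, 7.22, 7.12 and 7.76 in IKK2-CA islets. The Pdx-1+/- arrays lay close together and below all IKK2-CA arrays, while IKK2-CA array 4 overlapped the control arrays. The fitted difference was log2 0.37 (1.29-fold, SE 0.11, adjusted p = 0.394, limma) against Pdx-1+/- and 0.27 (1.20-fold, SE 0.11, adjusted p = 0.229) against control. The latter was 0.15 without IKK2-CA array 5.

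Mcm6 read 6.56, 6.57, 6.37, 6.64 and 6.65 in control, 6.57, 6.43, 6.44 and 6.26 in Pdx-1+/- and 6.45, 6.84, 6.69, 6.69 and 7.26 in IKK2-CA islets. IKK2-CA array 1 lay among the other groups, and array 5 was the highest of all 14. The difference from Pdx-1+/- was log2 0.36 (1.28-fold, SE 0.13, adjusted p = 0.544, limma), and that from control was 0.23 (SE 0.12, adjusted p = 0.407), or 0.11 with IKK2-CA array 5 left out. Mcm2 read 6.61, 6.60, 6.41, 6.67 and 6.57 in control, 6.67, 6.38, 6.70 and 6.72 in Pdx-1+/- and 6.71, 6.73, 6.94, 6.56 and 7.33 in IKK2-CA islets. Arrays 1, 2 and 4 of IKK2-CA were within the range of the other groups or next to it, and arrays 3 and 5 above it. This gave a log2 difference of 0.24 (1.18-fold, SE 0.13, adjusted p = 0.815, limma) against Pdx-1+/- and 0.29 (1.22-fold, SE 0.12, adjusted p = 0.275) against control. Leaving out IKK2-CA array 5 brought these to 0.12 and 0.17. Mcm4 (log2 0.43 and 0.22) and Mcm3 (0.32 and 0.38) overlapped between groups in both comparisons. Mcm4 was lowest on Pdx-1+/- array 4, at 5.82, and its difference from Pdx-1+/- was 0.21 without that array. When IKK2-CA array 5 was left out, its difference from control was 0.10, and Mcm3 was at 0.14 and 0.20.

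The sliding clamp and the nucleotide enzymes had medians of 0.21 against Pdx-1+/- and 0.13 against control. Pcna, the ring that holds DNA polymerase on its template, read 9.74, 9.48, 9.22, 9.54 and 9.30 in control islets and 9.57, 9.61, 9.51 and 9.18 in Pdx-1+/- islets. In IKK2-CA islets it read 9.69, 9.51, 9.58, 9.50 and 9.83. The 3 groups overlapped, and the difference was log2 0.16 (1.11-fold, SE 0.12, adjusted p = 0.895, limma) against Pdx-1+/- and 0.17 (1.12-fold, SE 0.11, adjusted p = 0.535) against control. The former was 0.06 without Pdx-1+/- array 4, and the latter 0.11 without control array 3. Rrm1 and Rrm2, the subunits of ribonucleotide reductase, which makes the building blocks of DNA, had log2 differences of 0.27 and 0.26 against Pdx-1+/- and of 0.09 and 0.31 against control. The difference of Rrm1 from Pdx-1+/- rested on Pdx-1+/- array 4, without which it was 0.05, and that from control was −0.01 without IKK2-CA array 5. Rrm2 was highest on IKK2-CA array 3 (6.75). Tyms, which makes thymidylate, was at log2 0.03 and 0.02, with 95% intervals of −0.31 to 0.36 and −0.29 to 0.34. Pcna has a pair of rows in the table with the same transcripts behind them, and pseudogenes of Pcna, Tyms and Ccnb2 are known, so part of these signals may come from near-identical copies.

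The regulators of entry into replication lay near 0. E2f1, a factor that turns replication genes on, was at log2 0.03 (95% interval −0.15 to 0.22) against Pdx-1+/- and −0.13 (−0.31 to 0.05) against control. Ccne1 and Ccne2, the E cyclins that start replication, were at log2 0.08 and 0.06 against Pdx-1+/- and 0.07 and −0.04 against control. No interval of these 3 genes reached above 0.30 in either comparison.

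Among the mitotic cyclins and kinases, Ccnb2 and Ccna2 differed most. Ccnb2 encodes cyclin B2, a partner of the kinase Cdk1 at entry into mitosis. It read 6.38, 6.44, 5.93, 6.44 and 6.09 in control islets, 6.23, 6.02, 6.39 and 6.23 in Pdx-1+/- islets and 6.56, 7.20, 7.59, 6.39 and 7.30 in IKK2-CA islets. IKK2-CA arrays 2, 3 and 5 were clearly above the other groups, array 1 just above them, and array 4 within them. The difference was log2 0.79 (1.73-fold, SE 0.21, adjusted p = 0.295, limma) against Pdx-1+/- and 0.75 (1.69-fold, SE 0.20, adjusted p = 0.065) against control. Ccna2, cyclin A2, which acts in both replication and mitosis, read 5.69, 6.59, 7.46, 5.97 and 7.22 on IKK2-CA arrays 1 to 5. It read 5.36 to 6.06 in control and 5.44 to 6.06 in Pdx-1+/- islets, so arrays 1 and 4 did not leave that range. Its difference was log2 0.85 (SE 0.30, adjusted p = 0.539, limma) against Pdx-1+/- and 0.90 (SE 0.29, adjusted p = 0.121) against control.

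Cdk1, the kinase that drives entry into mitosis, was at log2 0.45 and 0.42 against Pdx-1+/- and control. Plk1, a kinase of spindle assembly, was at 0.41 and 0.39, and Aurkb, the kinase of the chromosomal passenger complex, at 0.37 and 0.45. Foxm1, the factor that turns mitotic genes on, was at 0.27 and 0.19. Aurka, the kinase of the spindle poles, was at 0.08 and 0.10, the smallest differences in its group of 7. Cdk1, Plk1 and Aurkb shared the order seen for the cyclins, with IKK2-CA arrays 3 and 5 as the 2 highest of the 14.

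Of the 4 spindle checkpoint genes 0 passed the adjusted p by limma (lowest 0.619 against Pdx-1+/- and 0.0834 against control), with medians of 0.23 and 0.30. Over all genes 0.0752% and 0.682% were called higher. Bub1b, or BubR1, which holds back chromosome separation until all chromosomes are attached, read 4.66, 4.71, 4.65, 4.72 and 4.66 in control and 4.84, 4.89, 4.70 and 4.78 in Pdx-1+/- islets. In IKK2-CA islets it read 4.88, 5.12, 5.24, 4.73 and 5.53. The control arrays lay within a narrow band, and IKK2-CA array 4 exceeded that band only slightly. It differed by log2 0.42 (1.34-fold, SE 0.12, adjusted p = 0.0834, limma) against control and 0.29 (1.22-fold, SE 0.13, adjusted p = 0.662) against Pdx-1+/-. Bub1, its partner kinase, was at log2 0.61 and 0.69 against Pdx-1+/- and control, with arrays 3 and 5 at 5.03 and 5.50 and the other IKK2-CA arrays at 4.12 to 4.27. Against Pdx-1+/-, Bub1 was at 0.39 and Bub1b at 0.18 without array 5. Cdc20, which activates the ligase that ends the checkpoint, was at 0.17 and 0.19, and Ttk at −0.05 and 0.04.

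Kinetochore genes, which tie chromosomes to the spindle, were described together with Birc5. Cenpe, a kinetochore motor, was at log2 0.39 against Pdx-1+/- and 0.30 against control, the latter 0.17 without IKK2-CA array 5. Ndc80, which couples the kinetochore to microtubules, was at 0.12 and 0.26, Cenpf at 0.11 and 0.09, and Birc5, or survivin, of the chromosomal passenger complex, at 0.18 and 0.19. The group's medians were 0.15 and 0.22.

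All 6 spindle and midzone genes were positive in both IKK2-CA comparisons, with medians of 0.42 against Pdx-1+/- and 0.31 against control. At an unadjusted p under 0.05, 5 of 6 and 3 of 6 were higher (all genes: 4.32% and 6.2%). At the adjusted p 0 passed (all genes: 0.0752% and 0.682% called higher). Kif11, or Eg5, the motor that pushes the spindle poles apart, read 5.41, 5.31, 5.19, 5.25 and 5.20 in control and 5.17, 5.04, 5.26 and 5.09 in Pdx-1+/- islets. It read 5.41, 5.81, 6.15, 5.48 and 6.64 in IKK2-CA islets. All 5 IKK2-CA arrays lay above the other 9, although array 1 and control array 1 agree to 2 decimals. The fitted difference was log2 0.76 (1.69-fold, SE 0.19, adjusted p = 0.246, limma) against Pdx-1+/- and 0.62 (1.54-fold, SE 0.18, adjusted p = 0.0914) against control. Nusap1, which bundles spindle microtubules, was at log2 0.54 and 0.52, and Tpx2, which starts microtubules near chromosomes, at 0.40 and 0.31. Kif20a, Kif23 and Prc1, which build the midzone for cytokinesis, were at 0.43, 0.38 and 0.42 against Pdx-1+/- and at 0.32, 0.28 and 0.29 against control. Prc1 was at 0.17 against control without IKK2-CA array 5.

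The genes of chromosome structure had the largest differences against Pdx-1+/-, whereas against control that of Ccna2 (0.90) exceeded both. Mki67 read 6.29, 6.23, 5.77, 6.39 and 5.87 in control, 5.90, 5.93, 6.27 and 5.90 in Pdx-1+/- and 6.40, 6.93, 7.46, 6.41 and 7.65 in IKK2-CA islets. All IKK2-CA arrays lay above all others, arrays 1 and 4 by little and arrays 3 and 5 by most. The means were 6.11 ± 0.27 (SD, n = 5), 6.00 ± 0.18 (SD, n = 4) and 6.97 ± 0.58 (SD, n = 5). This gave a log2 difference of 0.97 (1.96-fold, SE 0.24, adjusted p = 0.235, limma) against Pdx-1+/- and 0.86 (1.81-fold, SE 0.22, adjusted p = 0.063) against control. Top2a, the topoisomerase that untangles sister chromatids, read 5.62, 5.36, 4.92, 5.51 and 4.85 in control, 5.13, 4.90, 5.46 and 5.07 in Pdx-1+/- and 5.39, 6.05, 6.33, 5.65 and 6.75 in IKK2-CA islets. IKK2-CA array 1 lay within the range of the other groups and the remaining 4 above it. The difference was log2 0.89 (1.85-fold, SE 0.24, adjusted p = 0.312, limma) against Pdx-1+/- and 0.78 (1.72-fold, SE 0.23, adjusted p = 0.0959) against control. The other row named for Top2a, with a 14-array mean of 2.94 instead of 5.50, gave log2 −0.17 and 0.04.

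**Figure D2:**
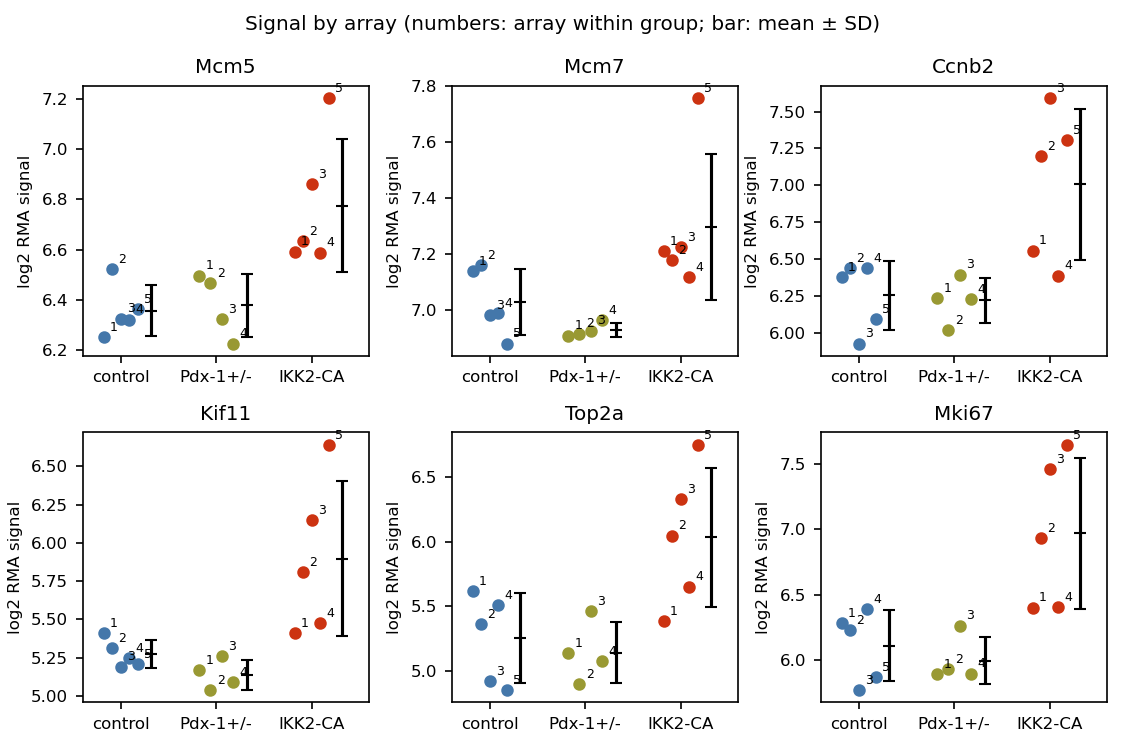
Log2 RMA signal (y axes, scaled per gene) of 6 members on each array, grouped by genotype (x axes), with the array number beside each point and black bars for the group mean ± SD. For Mcm5, Kif11 and Mki67 all 5 IKK2-CA arrays lie above all arrays of both other groups, and arrays 3 and 5 lie highest among them except for Mcm7, where array 5 alone stands off.

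The plot of signals by array shows how far the IKK2-CA means rest on arrays 3 and 5. Arrays 1 and 4 lie at or near the top of the control range for Ccnb2, Kif11 and Mki67.

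Pdx-1+/- and control islets did not differ detectably in any member. Of 36 members 14 had a positive log2 difference (all genes: 48.2%), and the median was −0.018 (all genes: −0.0049). By limma with Benjamini-Hochberg adjustment 0 members passed in either direction (all genes: 0 higher and 0.0953% lower), and at an unadjusted p under 0.05 the count was also 0 of 36 in each direction (all genes: 1.23% higher and 3.49% lower). The comparison asks what the driver allele, with its loss of a Pdx-1 copy, changes without active IKK2, in mice not labelled diabetic. Differences ran from log2 −0.21 (Mcm4) to 0.15 (Ndc80), every member had an adjusted p of 0.999, and the group ranges of every member overlapped (all genes: 0.481% higher and 1.4% lower throughout). The 95% intervals reached from −0.68 at the lowest to 0.70 at the highest over the members, with a median width of 0.65. Single members had narrower ones, such as Birc5 (−0.18 to 0.20) and E2f1 (−0.35 to 0.02). IKK2-CA arrays also entered the spread behind these intervals, which can widen them. The members' median SD was 0.316 in IKK2-CA, 0.141 in control and 0.153 in Pdx-1+/- islets. Fitted without the IKK2-CA arrays, 0 members passed at the adjusted or the unadjusted p (lowest adjusted p 0.939, limma).

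E2f1 had the lowest p of the replication genes here. It read 6.82, 7.05, 6.92, 6.85 and 6.88 in control and 6.79, 6.84, 6.54 and 6.79 in Pdx-1+/- islets, a log2 difference of −0.17 (0.891-fold, SE 0.09, adjusted p = 0.999, limma). Pdx-1+/- array 2 lay within the control range and the other 3 arrays below it. Rrm1 read 7.76, 7.56, 7.52, 7.72 and 7.52 in control and 7.85, 7.54, 7.58 and 6.78 in Pdx-1+/- islets. Its log2 difference of −0.18 (0.883-fold, SE 0.17, adjusted p = 0.999, limma) rested on Pdx-1+/- array 4, without which it was 0.04. Mcm6 was at log2 −0.13 (0.914-fold, SE 0.13, adjusted p = 0.999) with overlapping groups, at the array values given above.

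Of the mitosis genes Ndc80 came first, with 4.16, 4.52, 4.32, 4.36 and 4.07 in control and 4.45, 4.48, 4.36 and 4.44 in Pdx-1+/- islets. The Pdx-1+/- arrays lay inside the wider control range, and the log2 difference was 0.15 (1.11-fold, SE 0.10, adjusted p = 0.999, limma). Bub1b was at 0.13 (1.09-fold, SE 0.13). Tpx2 read 5.05, 5.10, 4.87, 5.14 and 4.99 in control and 4.95, 4.90, 5.06 and 4.83 in Pdx-1+/- islets, a log2 difference of −0.10 (0.935-fold, SE 0.11). Prc1 read 4.58, 4.24, 4.33, 4.51 and 4.34 in control and 4.28, 4.39, 4.46 and 3.96 in Pdx-1+/- islets, a log2 difference of −0.13 (0.915-fold, SE 0.15). The groups overlapped for both genes, and Prc1 was lowest on Pdx-1+/- array 4. Mki67 and Top2a were both at −0.11 (SE 0.24 each), Mcm2 at 0.05 (SE 0.13) and Pcna at 0.01 (SE 0.12).

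For most members the arrays differed most within the IKK2-CA group. The SD between arrays was largest in the IKK2-CA group for 29 of 36 members (80.6%), against 41.9% of all genes. Among the mitosis genes this held for 21 of 23 (91.3%) and among the replication genes for 8 of 13 (61.5%). The median SD of the members was 0.141 in control, 0.153 in Pdx-1+/- and 0.316 in IKK2-CA islets, while over all genes it was 0.143, 0.158 and 0.172. Arrays 3 and 5 were the 2 highest of the 14 for 22 of 36 members (61.1%), against 5.79% of all genes. Ranked by array, 21 members had their highest value on IKK2-CA array 5 and 12 on IKK2-CA array 3. The remaining 3 were E2f1 on control array 2, Tyms on Pdx-1+/- array 4 and Cenpf on control array 1. The lowest value fell on Pdx-1+/- array 4 for 11 members and on control array 3 for 10, the arrays with intestinal genes.

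**Figure D3:**
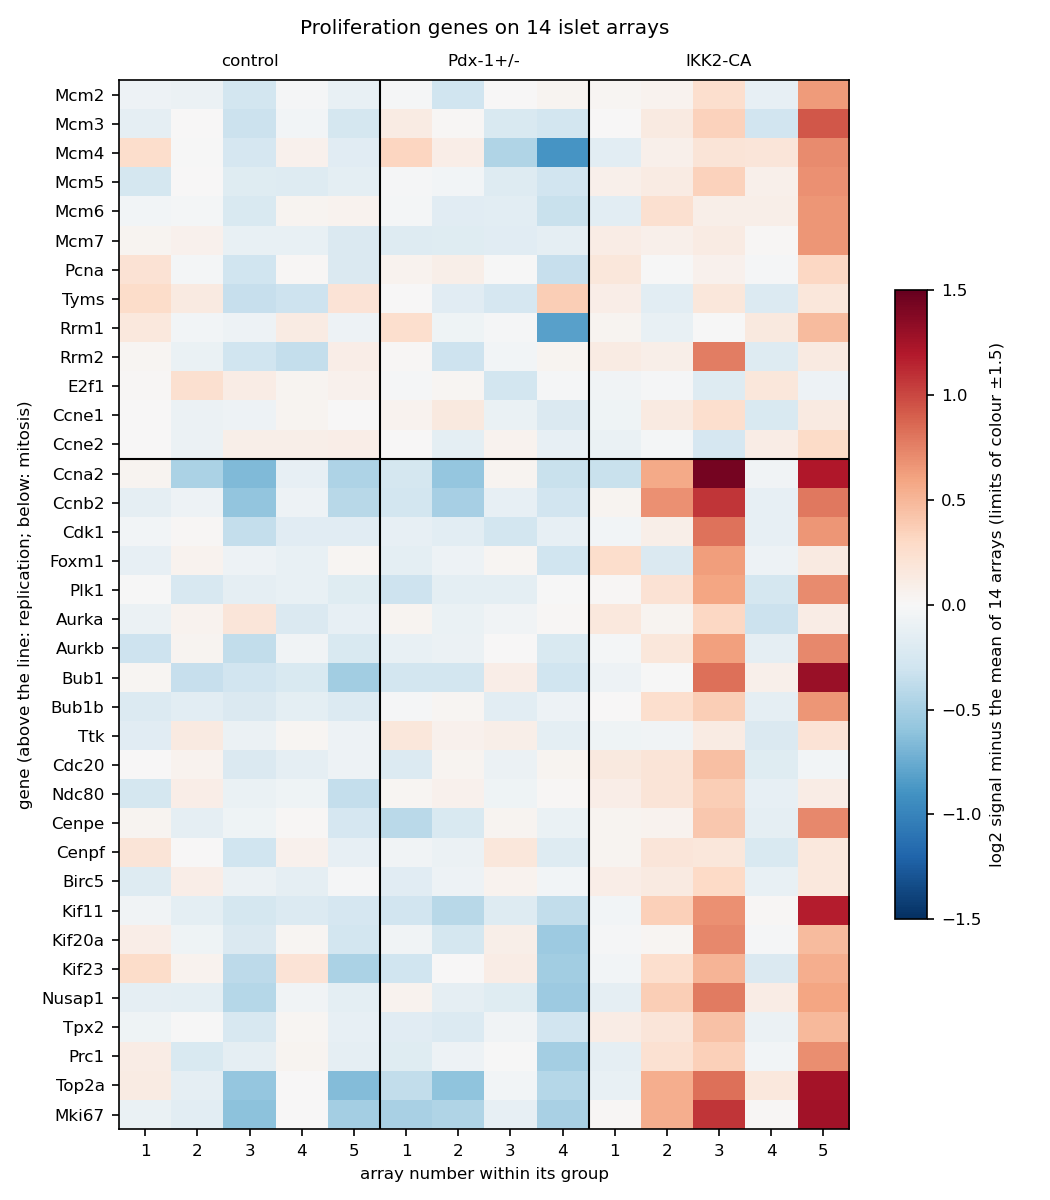
Log2 signal of each member (lines) on each of the 14 arrays (columns, by group), as the difference from that gene's 14-array mean, red for higher and blue for lower, with replication genes above the black line and mitosis genes below it. Columns 3 and 5 of the IKK2-CA group are red over most mitosis genes, and column 5 is also red over the MCM genes.

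Array by array, the members' median distance from the control mean was 0.72 on IKK2-CA array 5, 0.50 on array 3, 0.25 on array 2, 0.14 on array 1 and 0.03 on array 4. On array 5, 30 of 36 members exceeded all 9 control and Pdx-1+/- arrays, where 16.8% of all genes did. On array 3 it was 28 of 36 (all genes: 18%), on array 2 it was 21 (6.38%), on array 1 it was 13 (11.9%) and on array 4 it was 7 (8.11%). Of the 7 on array 4, 4 were mitosis and 3 replication genes. These arrays carry the same group label, and the labels give no reason for the split.

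Replication and mitosis genes did not keep the same ratio on every array. Averaged over genes as log2 deviations from the 14-array mean, the mitosis genes stood at 0.00, 0.22, 0.60, −0.10 and 0.61 on IKK2-CA arrays 1 to 5. The replication genes stood at 0.01, 0.05, 0.17, −0.02 and 0.44. Array 3 therefore had a mitosis mean like that of array 5 with a lower replication mean. Gene by gene, 11 of 13 replication genes were higher on array 5 than on array 3 (median of 5 minus 3: 0.39), and 12 of 23 mitosis genes were (median 0.04). Over all genes 9456 of 19938 were (median −0.021), so the mitosis genes lay near that share. The MCM genes averaged 0.23 on array 3 and 0.72 on array 5. On the control arrays the mitosis means ran from −0.27 to −0.04 and the replication means from −0.18 to 0.04. On the Pdx-1+/- arrays they ran from −0.25 to −0.03 and from −0.23 to 0.04. The mitosis mean minus the replication mean lay between −0.20 and −0.01 in control, −0.21 and 0.11 in Pdx-1+/-, and −0.08 and 0.44 in IKK2-CA islets, so the ranges overlapped.

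**Figure D4:**
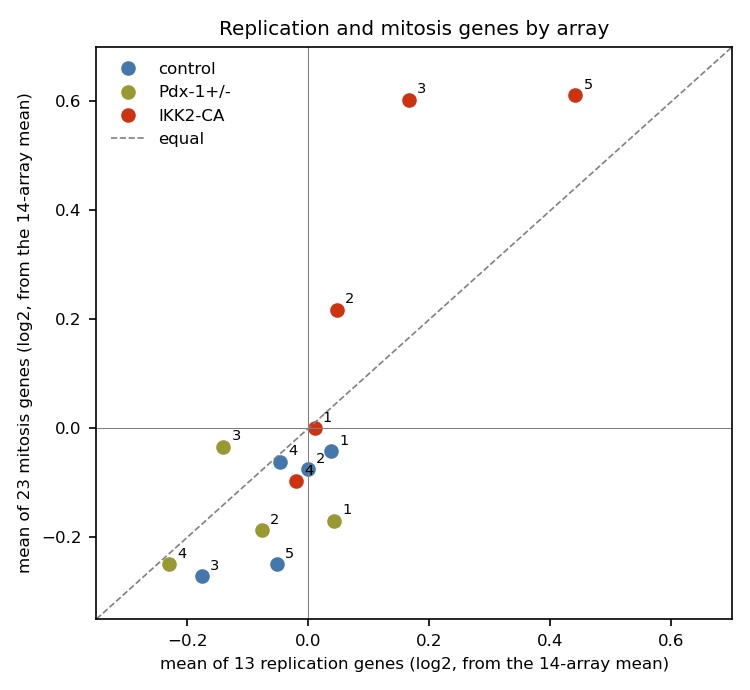
Mean of the 13 replication genes (x axis) against the mean of the 23 mitosis genes (y axis) on each array, both as log2 deviations from the 14-array mean, with a numbered point per array coloured by group and a dashed line where both are equal. IKK2-CA arrays 2, 3 and 5 lie above the line at mitosis means of 0.22, 0.60 and 0.61. IKK2-CA array 4 (−0.10) lies within the range of the control arrays, and IKK2-CA array 1 (0.00) just above the highest control (−0.04) and Pdx-1+/- array (−0.03).

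Other genes of the same pathways, from lists of replication and mitosis genes that are no members, were examined next. Of 53 other replication genes 52 were measured, and 45 were positive against Pdx-1+/- (all genes: 45%) and 41 against control (46.4%), with medians of 0.12 and 0.09. Of 72 other mitosis genes 70 were measured, and 63 and 61 were positive, with medians of 0.19 and 0.18. Against Pdx-1+/- 0 genes of either list passed the adjusted p (all genes: 0.0752% higher and 0 lower). At an unadjusted p under 0.05, 7 replication and 24 mitosis genes were higher (all genes: 4.32%) and 0 were lower (2.69%). Against control, Dna2 and Sgo2a rose and Spc25 fell (limma with Benjamini-Hochberg adjustment). These were 1 of 52 replication genes higher, and 1 of 70 mitosis genes higher and 1 lower (all genes: 0.682% higher and 1.56% lower). At an unadjusted p under 0.05, 9 replication and 27 mitosis genes were higher (all genes: 6.2%), with 2 and 1 lower (9.47%). The medians of both lists were smaller than those of the members. Pdx-1+/- against control gave medians of −0.01 and −0.02 with 0 calls (all genes: 0 higher and 0.0953% lower).

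Dna2, a nuclease and helicase that processes Okazaki fragments and DNA ends, read 4.99, 5.20, 5.02, 5.13 and 5.24 in control and 5.35, 5.14, 5.41 and 5.06 in Pdx-1+/- islets. It read 5.80, 6.09, 6.17, 5.56 and 7.38 in IKK2-CA islets, and no IKK2-CA array overlapped the other groups. It rose by log2 1.08 (SE 0.25, adjusted p = 0.037, limma) against control and was at 0.96 (SE 0.26, adjusted p = 0.312) against Pdx-1+/-. Sgo2a, or shugoshin, which protects centromeric cohesin, rose by 0.49 (SE 0.12, adjusted p = 0.0438) against control and was at 0.64 (SE 0.12, adjusted p = 0.0777) against Pdx-1+/-. Its IKK2-CA arrays (5.27 to 5.75) overlapped control (4.83 to 5.36) but not Pdx-1+/- (4.83 to 5.01). Spc25, a subunit of the Ndc80 complex, fell by 0.87 (SE 0.21, adjusted p = 0.0451) against control, although Ndc80 itself was at 0.26. With each control or IKK2-CA array left out in turn, Dna2 lost its call without control arrays 1, 3, 4 or 5 or IKK2-CA arrays 2 or 3 (adjusted p up to 0.111). Sgo2a kept its call only without control array 1, control array 2 or IKK2-CA array 4 (otherwise up to 0.141), and Spc25 only without IKK2-CA array 4 (otherwise up to 0.145). All 3 lost their calls when limma was fitted to control and IKK2-CA arrays alone, with adjusted p of 0.0764 for Dna2, 0.0869 for Sgo2a and 0.0589 for Spc25. With the replicate number as a block the adjusted p was 0.0342 for Dna2, 0.119 for Sgo2a and 0.111 for Spc25, and with quantile normalization Sgo2a had 0.0572. Leaving out the 3 arrays with intestinal or adipocyte genes gave 0.0145 for Dna2, 0.183 for Sgo2a and 0.122 for Spc25.

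The genes with the next lowest p in these lists did not pass. Against Pdx-1+/-, Prim1, the primase, was at log2 0.41 (SE 0.13), Pole, the leading-strand polymerase, at 0.48 (SE 0.18), Ckap2l at 0.52 (SE 0.13) and Mad2l1, a checkpoint protein, at 0.67 (SE 0.19). Against control, Clspn, a mediator of the replication checkpoint, was at 0.28 (SE 0.09), Dut, which keeps uracil out of DNA, at −0.30 (SE 0.10) and Cdca5, or sororin, at 0.30 (SE 0.08). The adjusted p of these genes lay between 0.0737 and 0.562.

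Some markers of leukocytes were high on the same IKK2-CA arrays as the proliferation genes. Among 7 pan-leukocyte markers the mean level was 8.21 to 9.92 on the IKK2-CA arrays, 7.55 to 8.09 on control and 7.78 to 8.22 on Pdx-1+/- arrays, highest on IKK2-CA arrays 5, 3 and 2 in that order. Of these markers 1 rose against Pdx-1+/- and 2 rose against control, where 0.0752% and 0.682% of all genes were called higher. The 9 dendritic cell markers averaged 7.19 to 8.47 in IKK2-CA, 5.92 to 6.27 in control and 5.92 to 6.25 in Pdx-1+/- islets, with 5 of 9 and 8 of 9 called higher. The 9 T cell markers averaged 4.84 to 6.10 in IKK2-CA islets, 4.82 to 5.02 in control and 4.76 to 5.06 in Pdx-1+/- islets, with 0 called. Array by array they stood at −0.02, 0.11, 0.80, −0.27 and 0.99 on IKK2-CA arrays 1 to 5, as log2 deviations from the 14-array mean. The 8 B cell markers stood at −0.24, 0.13, 0.69, −0.48 and 0.88 on them. The 8 natural killer cell markers stood at −0.03, 0.08, 0.36, −0.23 and 0.71 on them, with 0 called. The T cell, B cell, natural killer cell and pan-leukocyte lists thus had the same order of IKK2-CA arrays as the mitosis genes, with arrays 5 and 3 highest and array 4 lowest. On Pdx-1+/- array 1, however, the B cell markers stood at 0.50 and the mitosis genes at −0.17. On Pdx-1+/- array 4 the natural killer cell markers stood at 0.16 and the mitosis genes at −0.25. The dendritic cell markers stood at 0.60 on IKK2-CA array 4, where the mitosis genes were lowest, and at 0.58 on array 1. The 11 macrophage and myeloid markers were high on array 5 (0.70) and not on array 3 (0.01), with 0 called. Endothelial markers stood at −0.30, 0.45 and 0.51 on IKK2-CA arrays 3, 4 and 5, those of stellate cells and fibroblasts at −0.16, 0.35 and 0.20, and ductal markers at −0.08, 0.12 and −0.13.

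**Figure D5:**
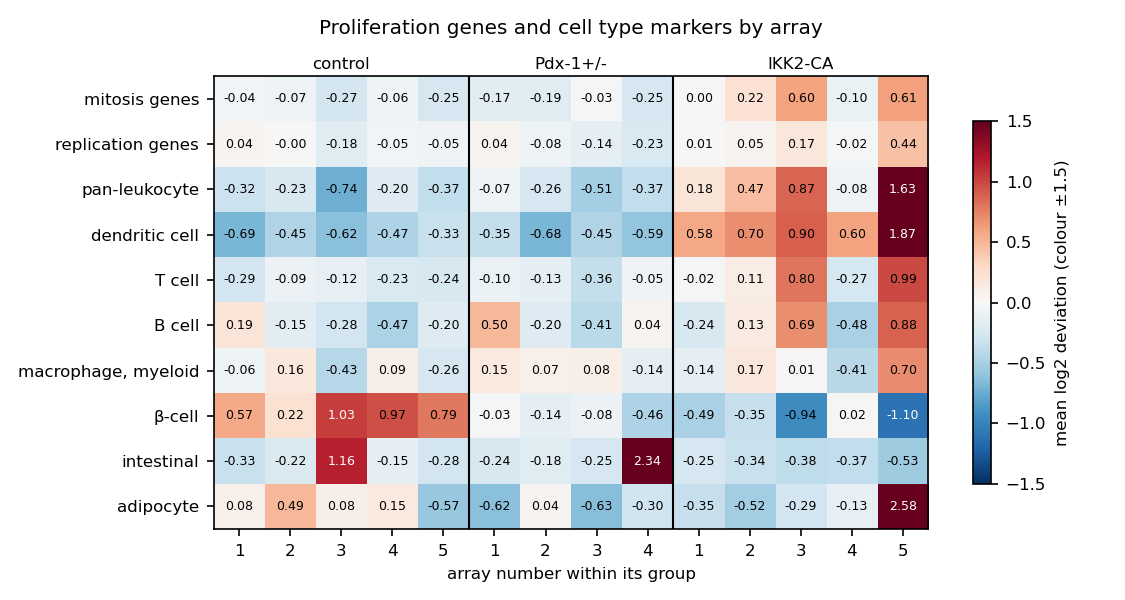
Mean log2 deviation from the 14-array mean of the mitosis genes, the replication genes and 8 lists of cell type markers (lines) on each array (columns, by group), with the value printed in each cell. On IKK2-CA arrays 3 and 5 the T cell (0.80 and 0.99), B cell (0.69 and 0.88) and mitosis (0.60 and 0.61) lines are high together, while the β-cell line is low (−0.94 and −1.10).

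β-cell markers ran the other way. Their mean over 10 genes was 9.89 to 10.7 in control, 9.20 to 9.63 in Pdx-1+/- and 8.57 to 9.68 in IKK2-CA islets, with IKK2-CA array 4 the highest of its group and arrays 5 and 3 the lowest. Of these genes 7 of 10 fell against control (all genes: 1.56% lower) and 0 of 10 against Pdx-1+/- (all genes: 0 lower). The 5 markers of erythroid precursors, another dividing cell type, had mean levels of 5.35 to 5.52 in IKK2-CA islets, against 5.48 to 5.70 in control and 5.53 to 5.64 in Pdx-1+/-. Log2 signals on these arrays do not reach 0, so no marker could be read as absent. Which cells made the transcripts of the proliferation genes, and the part of each marker list in their differences, was not tested.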

How the data were processed

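RNA of mouse islets was hybridised to 14 Affymetrix Mouse Gene 1.0 ST arrays. The authors summarised signals with RMA, per the labels, in Affymetrix Expression Console, per the submitters' processing notes; the sources used here give no version. From their range the deposited values were read as log2 signals, though no log base is stated. RMA gives the arrays near-equal distributions, so a shift of all genes on an array would be removed. Array medians lay between 6.453 and 6.551, and the number of arrays limits the precision.

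The value table has 35556 rows. The array's gene table lists 23410 of them, and the 21789 with 1 gene symbol were used, while 1621 with several symbols and 12146 not listed were left out. Where a gene had several rows (999 genes), the row with the highest mean stood for it. This left 19938 genes, with no filter on signal. All genes were fitted together with limma 3.58.1 (lmFit, eBayes) under R 4.3.3, with a mean for each of the 3 groups and all 14 arrays, which left 11 residual and 3.46 prior degrees of freedom. P-values are two-sided and were adjusted after Benjamini and Hochberg across the 19938 genes, and an adjusted p under 0.05 counts as called. The SE is limma's moderated one, and a fold is the log2 difference raised from base 2. Each gene has 1 spread for all 3 groups in this fit, although most members varied most between IKK2-CA arrays. The scripts were tested on simulated data.

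The members, the lists of other replication and mitosis genes and the marker lists were chosen with earlier results of these data known. All members are named. Those given with the value of every array are, per comparison, the 3 replication and 4 mitosis genes with the lowest p, and Mki67, Top2a, Pcna and Mcm2. Ccna2 is described further because of its fold, a choice made after its values were seen. From each other list the 3 genes with the lowest p in either IKK2-CA comparison are named. Replicate numbers recur in the groups. Same-numbered arrays correlated between −0.39 and 0.36 after group means were removed, so no pairing was used. Alternatives were median centring, quantile normalization, eBayes with trend, a fit without the third group, a filter that dropped the lowest 30% of genes, other rows per gene, array weights, the number as a block, and leaving out arrays.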

Additional observations from a re-analysis of the deposited data

Results flagged for a closer look

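Of 114 groups of 4 or 5 arrays examined, 5 held an array whose distance from its nearest neighbour was large beside the range of its group by Dixon's test at the 5% level. Chance alone flags about 1 in 20 groups. Mcm7 read 7.76 on IKK2-CA array 5, where the next highest array of that group read 7.22. Mki67 read 6.27 on Pdx-1+/- array 3, against 5.93 for the next array, and Bub1 read 4.30 on the same array, against 3.92. Mcm2 read 6.38 on Pdx-1+/- array 2, below the next array at 6.67. Nusap1 read 4.77 on control array 3, below the next array at 5.05.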

How the results depend on the processing

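Against Pdx-1+/- and against control, the median of the members stayed above 0 under every alternative run. Without each array in turn it ran from 0.26 to 0.42 and from 0.20 to 0.37, and for Pdx-1+/- against control from −0.080 to 0.0069. Members dropped by the low-value filter had 24 settings and the others 25. The direction was the same in all of a member's settings for 29, 32 and 14 of 36 members in the 3 comparisons. Of the 36 members, 0, 12 and 0 passed the adjusted p in at least 1 setting. Some settings cannot change a log2 difference, so they say nothing on direction. They are eBayes with trend, the low-value filter, the fit without the third group, and leaving out an array of that group. Other rows per gene can change only Pcna and Top2a, the members with several rows. The replicate block changes no log2 difference of IKK2-CA against control. Against control, 1 member passed with centred arrays and 1 with quantile normalization (Mcm5 in both), 9 with array weights, and 0 to 8 without each array in turn. Genes called over all were 466 with centred arrays, 497 with quantile normalization and 1431 with array weights, against 448 in the main fit. Without IKK2-CA array 4 they were 980. The count of members higher at an unadjusted p under 0.05 against Pdx-1+/- (18) was 11 with the lowest 30% of genes left out, which leaves 23 members. It was 10 when Pdx-1+/- 4 and IKK2-CA 5 were left out, and 8 without these and control 3. Against control (18) it was 9 without those 3 arrays. With the replicate block these counts were 12, 17 and 0, 0 members passed the adjusted p in any comparison, and genes called over all were 9, 197 and 9 instead of 15, 448 and 19. The numbers did not pair the arrays. Some differences changed sign, most of them small. Top2a, at 0.89 against Pdx-1+/- in the main fit, has a dimmer row with a mean of 2.94, under the first percentile of all values (2.958). That row gave −0.17 against Pdx-1+/-. For Pdx-1+/- against control Top2a gave 0.20 from that row, or 0.047 for the mean of its rows. In that last comparison Rrm1 was 0.039 without Pdx-1+/- 4 and IKK2-CA 5 and 0.015 without the 3 arrays, where Mcm2 was −0.027. Without each array in turn Rrm1 ran from −0.32 to 0.039 and Pcna from −0.049 to 0.11. Beyond the arrays and genes left out, the cause of these changes was not tested. Low signal limits most members, since 29 of 36 lie below the median gene.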

Other observations

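Spc25, the mitosis gene that fell against control, had its lower level in both groups that carry the driver. It read 8.61 ± 0.33 (SD, n = 5) in control islets and 7.87 ± 0.39 (SD, n = 4) in Pdx-1+/- islets, where limma gave an adjusted p of 0.595 against control. In IKK2-CA islets it read 7.74 ± 0.39 (SD, n = 5). Its neighbour in the RefSeq gene order is G6pc2, which encodes a glucose phosphatase of β-cells. G6pc2 read 11.78 ± 0.26 (SD, n = 5) in control, 10.99 ± 0.28 (SD, n = 4) in Pdx-1+/- and 10.62 ± 0.42 (SD, n = 5) in IKK2-CA islets. The neighbour on the other side, Nostrin, read 6.47 ± 0.21, 6.71 ± 0.11 and 6.87 ± 0.32 in the same groups. Whether the probes of Spc25 also read transcripts of its neighbour was not tested.

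Cdca8, a subunit of the chromosomal passenger complex, did not overlap between IKK2-CA (4.25 to 4.64) and either control (4.01 to 4.13) or Pdx-1+/- islets (3.98 to 4.21). It was singled out after its values were seen.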
